A study of Bos indicus with 12 samples.

Results

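BLNK (gene identifier 109553167) and 8 further genes of B cell signalling and B lineage identity were followed in blood RNA of 12 zebu cows. They are BANK1 (109560299), CD79B (109573323), CD22 (109572327), FCRL1 (109579063), FCER2 (109561648), EBF1 (109562258), PAX5 (109563039) and BCL11A (109566097). The 9 genes were found by symbol among 26229 gene identifiers of the count table, and all 9 passed the filter on low counts. They are B cell genes that were chosen by yield differences already seen in these cows, among them the low BLNK of high-yielding Shweta Kapila cows. Every yield difference of a member is therefore given as a description with its standard error (SE) and without a test.

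The cows were multiparous females of 2 Indian breeds, Gir and Shweta Kapila. Within each breed, lactation records were used to class 3 cows as high-yielding and 3 as low-yielding, which gives 4 groups, Gir high, Gir low, Shweta Kapila high and Shweta Kapila low. No agent was given in any group, as far as the labels say, and each library comes from a separate cow. The sample labels name peripheral blood mononuclear cells as well as a whole-blood RNA kit. Levels are in CPM, counts scaled to the size and composition of the library, and they compare cows for a gene, not genes with each other, since no transcript lengths were used.

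B cells read antigen through a membrane immunoglobulin held by the CD79A and CD79B chains, whose tails are phosphorylated by kinases such as LYN and SYK. BLNK is the adaptor that then brings BTK and PLCG2 together, BANK1 is a scaffold of LYN and calcium release, and CD22 and FCRL1 are co-receptors that tune the signal. EBF1 and PAX5 establish and keep B cell identity, BCL11A is needed for B cell development, and FCER2 is CD23, the low-affinity IgE receptor of mature B cells. BLNK, BCL11A and the factor TCF4 are also expressed in plasmacytoid dendritic cells, a rare blood cell type. In RNA from mixed blood cells, fewer B cells and less RNA per B cell cannot be told apart.

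Libraries held 14.2 M to 27.2 M counts, and every member had at least 133 counts in every library. Shweta Kapila low 3 stood apart in 2 respects, with 20134 genes detected against 18626 to 19412 in the other 11 libraries, and with the lowest sample weight of limma-voom (0.184, against a highest of 6.62). The limma-voom calls given below thus lean less on this cow than those of edgeR and DESeq2, which used no sample weights. Between 4.54% and 13.1% of a library's counts fell on 37 unnamed short identifiers. That share was 4.54%, 4.72% and 9.00% in Shweta Kapila high 1 to 3, against 13.1%, 11.7% and 5.57% in low 1 to 3. CD79A, a defining B cell marker outside the members, was detected in all 12 cows at 122 to 1085 CPM, and its Pearson r with BLNK was 0.42 (log2 CPM, 12 cows). Summed CPM of 12 neutrophil markers, from a list of 18, ran from 2058 to 6436 over the 12 cows. Among these markers CSF3R ran from 479 to 2147 CPM, while LTF and PGLYRP1 reached at most 3.25 and 1.49 CPM. Whether granulocytes were the source was not tested.

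BLNK separated the yield groups of Shweta Kapila. It stood at 32.9, 32.6 and 38.0 CPM in Shweta Kapila high 1 to 3, against 68.7, 84.8 and 92.9 CPM in low 1 to 3. All 3 high-yielding cows lay below all 3 low-yielding cows, at 34.5 ± 3.03 against 82.1 ± 12.3 CPM (mean ± SD, n = 3 each). This is −1.25 ± 0.29 (SE) on the log2 scale, and all fold changes below are log2 fold changes of high-yielding over low-yielding cows unless stated otherwise. In Gir, BLNK stood at 49.2, 53.1 and 78.2 CPM in high-yielding cows, against 52.5, 32.7 and 69.9 CPM in low-yielding cows. The Gir groups overlapped, at 60.2 ± 15.7 and 51.7 ± 18.6 CPM (mean ± SD, n = 3 each), with a log2 fold change of 0.22 ± 0.28 (SE). Over the 4 groups the order of means was Shweta Kapila low, Gir high, Gir low and Shweta Kapila high, and no neighbours in that order were free of overlap.

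BLNK was also the member least dependent on any one cow in Shweta Kapila. With each of the 12 cows left out in turn its log2 fold change stayed between −1.37 and −1.15. Without Shweta Kapila low 3 it was −1.15 ± 0.30 (SE), and without Gir low 3 the BLNK difference in Gir came to 0.50, the top of its range there.

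**Figure D1:**
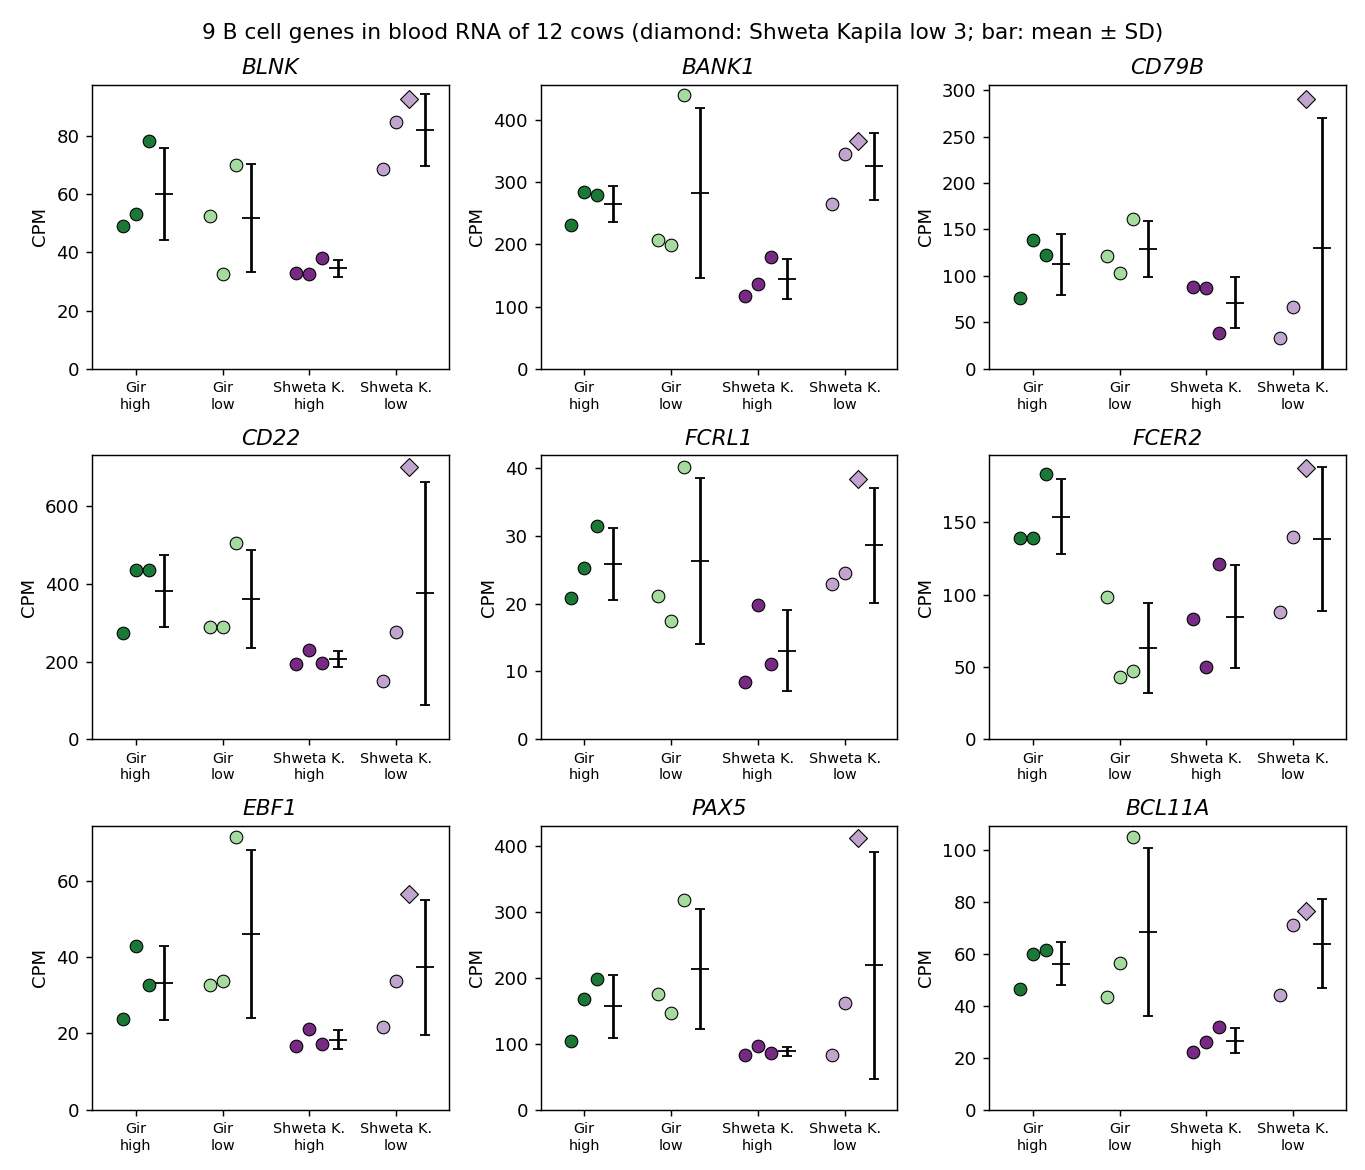
Each panel shows CPM (y axis, from 0) of a B cell gene in the 3 cows of each group (x axis), with the mean ± SD beside the points and Shweta Kapila low 3 as a diamond (error bars below 0 end at the axis). BLNK at 32.6 to 38.0 CPM in Shweta Kapila high lies below 68.7 to 92.9 CPM in low, while CD79B reaches 291 CPM in the diamond cow and 33.6 and 66.3 CPM in the other two low-yielding Shweta Kapila cows.

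BANK1 went with BLNK. In Shweta Kapila, BANK1 stood at 116, 136 and 180 CPM in high 1 to 3, against 265, 345 and 367 CPM in low 1 to 3, with no overlap between the groups (log2 fold change −1.18 ± 0.31, SE). In Gir it stood at 232, 283 and 279 CPM in high-yielding cows, against 208, 199 and 440 CPM in low-yielding cows. The top Gir value belonged to low 3, and the log2 fold change of BANK1 in Gir, −0.09 ± 0.31 (SE), became 0.38 without that cow.

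The kinases and adaptors around BLNK were taken from a list of 28 receptor signalling genes, all of which were tested. LYN, the kinase that starts the signal, averaged 504 ± 191 CPM in Shweta Kapila high and 873 ± 34.3 CPM in low (mean ± SD, n = 3 each), without overlap (log2 fold change −0.79 ± 0.31, SE). PLCG2, the phospholipase that BLNK recruits, also had separate groups (91.6 ± 18.0 against 127 ± 14.02 CPM; −0.48 ± 0.22). BTK (−0.54 ± 0.24), SYK (−0.59 ± 0.31) and the phosphoinositide adaptor PIK3AP1 (−0.70 ± 0.27) had lower means with overlapping groups. RASGRP3, an exchange factor that links diacylglycerol to RAS, was at −1.17 ± 0.37 in Shweta Kapila, without overlap. In Gir the same 6 genes lay between −0.23 (RASGRP3) and 0.09 (LYN). Blood cells other than B cells may add to these genes. In Shweta Kapila high and low, summed CPM of 7 monocyte markers ran from 1209 to 2154 and from 777 to 2561. CTSS and CX3CR1 weighed most in the highest of these sums, at 1014 and 1186 CPM in low 1, against 315 and 148 CPM in low 3. The neutrophil sums ran from 2058 to 5603 and from 2638 to 3462. The cow of lowest LYN, Shweta Kapila high 2 at 305 CPM, had the lowest neutrophil sum of the 12 cows. The part of other cells was not tested.

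Of the 28 signalling genes, edgeR's quasi-likelihood test called 0 in Shweta Kapila at an adjusted p under 0.05, with 6 lower at an unadjusted p under 0.05. DESeq2 called 0 and limma-voom with sample weights called 10, all lower. In that comparison 0.00% of the 15420 genes tested passed edgeR, 1077 (6.98%) had an unadjusted p under 0.05, and DESeq2 and limma-voom called 61 and 3898. Signs were lower for 22 of the 28, with a median log2 fold change of −0.43 beside −0.02 over all genes. Without Shweta Kapila low 3 the same count, 22 of 28, and a median of −0.38 were found. In Gir 16 of 28 were lower, with a median of −0.01 beside −0.02 over all genes, and edgeR called 0 of them (0 at an unadjusted p under 0.05, 0 by DESeq2 and 0 by limma-voom).

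CD79B, the signalling chain of the antigen receptor, had a different spread from BLNK. CD79B stood at 88.0, 87.0 and 39.1 CPM in Shweta Kapila high 1 to 3, against 33.6, 66.3 and 291 CPM in low 1 to 3. The group means, 71.4 ± 28.0 against 130 ± 140 CPM (mean ± SD, n = 3 each), were thus set by low 3, and the lowest of the 12 cows was a low-yielding one, low 1. The log2 fold change was −0.87 ± 0.62 (SE) with low 3 and 0.51 ± 0.40 without it. In Gir CD79B ran from 76.0 to 138 CPM in high-yielding cows, against 103 to 162 CPM in low-yielding cows (−0.19 ± 0.62), with overlap.

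CD79A, the other chain of the pair, followed CD79B. CD79A stood at 315, 238 and 184 CPM in Shweta Kapila high 1 to 3, against 122, 276 and 1085 CPM in low 1 to 3. Its log2 fold change of −1.01 ± 0.59 (SE) became 0.31 without low 3. MS4A1 and CR2 had no identifier that could be matched by symbol and were not analysed here.

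CD22, an inhibitory lectin of the B cell surface, was intermediate. It stood at 194, 230 and 197 CPM in Shweta Kapila high 1 to 3, against 150, 275 and 699 CPM in low 1 to 3, so the groups overlapped through low 1. Its log2 fold change was −0.86 ± 0.45 (SE), and −0.04 ± 0.33 without low 3. FCRL1, an activating Fc receptor-like protein, stood at 8.42, 19.7 and 11.1 CPM in Shweta Kapila high 1 to 3, against 22.8, 24.6 and 38.4 CPM in low 1 to 3. The FCRL1 groups did not overlap (−1.13 ± 0.39, and −0.86 ± 0.40 without low 3), but its reads may be split with related Fc receptor-like genes. In Gir both were near 0, CD22 at 0.08 ± 0.45 and FCRL1 at −0.02 ± 0.39.

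From a list of 26 further surface and receptor genes found on B cells, not all particular to them, 22 were matched and tested. In Shweta Kapila 17 of the 22 were lower with high yield, with a median log2 fold change of −0.53. Without low 3 only 9 of 22 were lower and the median was 0.19, so the direction of this list rested on that cow. edgeR called 0 of them (2 lower and 1 higher at an unadjusted p under 0.05), DESeq2 0 and limma-voom 4, of which 2 were higher. The higher one of lowest p was P2RX5, an ATP-gated channel, at 219 ± 46.7 CPM in Shweta Kapila high and 116 ± 10.0 CPM in low (mean ± SD, n = 3 each; 0.92 ± 0.26, edgeR adjusted p = 0.575).

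**Figure D2:**
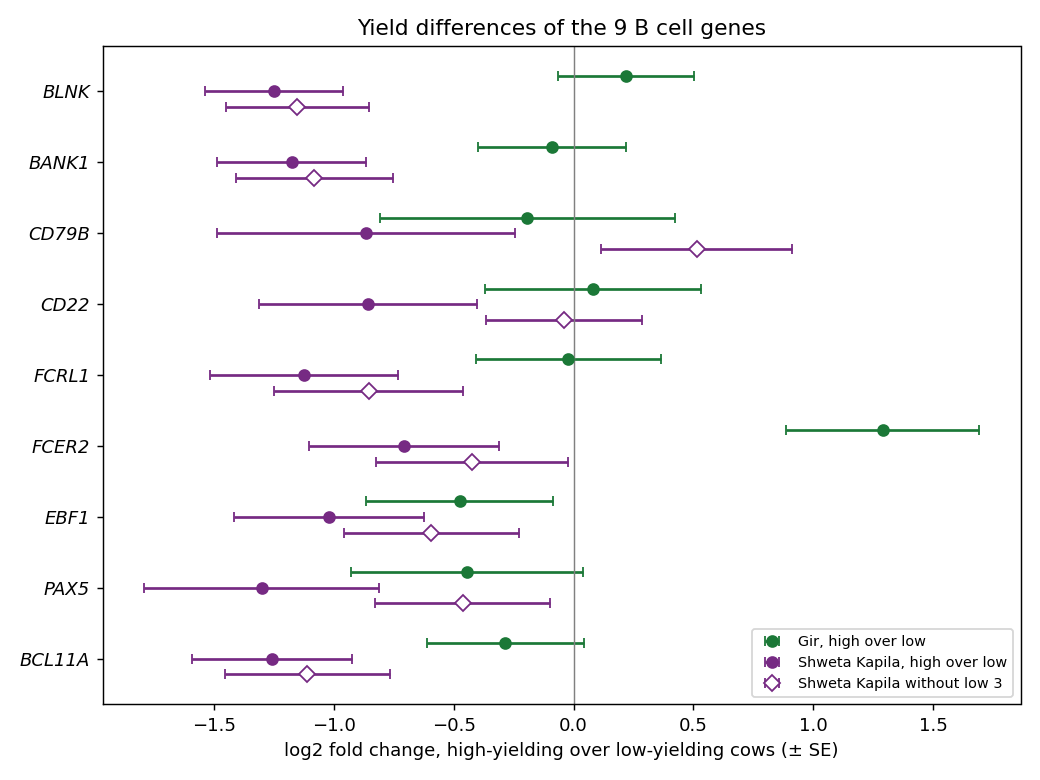
Points are log2 fold changes of high-yielding over low-yielding cows (x axis, ± SE) for the 9 genes (y axis), in Gir, in Shweta Kapila, and in Shweta Kapila without low 3 (open diamonds). BLNK, BANK1 and BCL11A keep values between −1.26 and −1.08 in both Shweta Kapila fits, CD79B is at 0.51 without low 3 and −0.87 with it, and FCER2 is at 1.29 in Gir.

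The 3 lineage factors differed in how far they leaned on low 3. BCL11A stood at 22.2, 26.1 and 31.8 CPM in Shweta Kapila high 1 to 3, against 44.3, 71.1 and 76.4 CPM in low 1 to 3, without overlap (−1.26 ± 0.33, and −1.11 ± 0.34 without low 3). EBF1 stood at 16.7, 21.1 and 17.3 CPM against 21.7, 33.8 and 56.5 CPM, and the groups were parted by a narrow gap between 21.1 and 21.7 CPM (−1.02 ± 0.40, and −0.59 ± 0.37 without low 3). PAX5, which holds cells to the B lineage, stood at 83.7, 96.8 and 86.4 CPM against 83.4, 162 and 413 CPM. PAX5 in low 1 was thus below every high-yielding cow, and the log2 fold change of −1.30 ± 0.49 became −0.46 ± 0.37 without low 3.

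In Gir all 3 factors had their highest value in low 3. BCL11A was at 46.7, 60.2 and 61.7 CPM in Gir high 1 to 3, against 43.5, 56.7 and 105 CPM in low 1 to 3. EBF1 ran from 23.8 to 43.0 CPM in Gir high, against 32.8 to 71.5 CPM in low, and PAX5 from 105 to 198 CPM against 147 to 318 CPM. All 3 overlapped between the Gir groups, with log2 fold changes of −0.28 ± 0.33, −0.48 ± 0.39 and −0.45 ± 0.48 (SE) for BCL11A, EBF1 and PAX5. Without Gir low 3, 7 of the 9 members were higher in high-yielding Gir cows (median 0.38), against 3 of 9 with it (median −0.09).

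Of 20 other lineage factors 19 were tested, and 18 of these were lower with high yield in Shweta Kapila (median −0.39, and 14 of 19 with a median of −0.33 without low 3). edgeR called 0 (4 lower at an unadjusted p under 0.05), DESeq2 0 and limma-voom 7, all lower. TCF4, an E protein, averaged 72.5 ± 27.2 CPM in Shweta Kapila high and 182 ± 36.96 CPM in low (mean ± SD, n = 3 each; log2 fold change −1.33 ± 0.35, edgeR adjusted p = 0.575). MEF2C, a factor that acts downstream of receptor signals (57.0 ± 16.3 against 107 ± 16.1 CPM; −0.91 ± 0.28, edgeR adjusted p = 0.631), and POU2AF1, the B cell coactivator of octamer factors (75.8 ± 4.58 against 156 ± 61.2 CPM; −1.04 ± 0.33, edgeR adjusted p = 0.631), came next. HHEX, a homeobox factor, was at −0.88 ± 0.28. All 4 had separate groups in Shweta Kapila.

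FCER2 was the only member with separate groups in Gir. It stood at 139, 139 and 184 CPM in Gir high 1 to 3, against 98.7, 43.3 and 46.9 CPM in low 1 to 3, a log2 fold change of 1.29 ± 0.40 (SE) that stayed between 1.08 and 1.77 with each cow left out. In Shweta Kapila it ran the other way with overlap, at 83.05, 49.9 and 121 CPM in high 1 to 3, against 87.9, 140 and 188 CPM in low 1 to 3 (−0.71 ± 0.40, and −0.42 ± 0.40 without low 3). Gir low 3, the cow with the highest BANK1, EBF1, FCRL1 and BCL11A of all 12, had the second-lowest FCER2. FCER2 is also made by monocytes, and the summed CPM of 7 monocyte markers, from a list of 14, ran from 1332 to 1346 in Gir high and from 928 to 1081 in Gir low. The part of monocytes in the FCER2 difference was not tested.

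In Gir, non-overlap was thus found for 1 of 9 members on the higher and 0 of 9 on the lower side, where 5.12% and 5.06% of all genes tested had it. In Shweta Kapila it was found for 5 of 9 on the lower side (BLNK, BANK1, FCRL1, EBF1 and BCL11A) and 0 on the higher side, where the shares of all genes were 3.70% and 3.51%. Since these cows chose the members, nothing is read from that count. All 9 members had log2 fold changes below 0 in Shweta Kapila (median −1.13 beside −0.02 over all genes), and 8 of 9 without low 3, with a median of −0.59. Averaged over both breeds 8 of 9 were below 0, with a median of −0.57, and FCER2 was at 0.29 ± 0.28 (SE). Without Shweta Kapila low 3 that count was 6 of 9, with a median of −0.45. Of the 69 other genes tested from the 3 B cell lists, 55 were below 0 over both breeds (median −0.24 beside −0.01 over all genes). Not all of these genes are particular to B cells, and CD5 also stands among the T cell markers used below. edgeR called 0 of the 69 (1 higher and 10 lower at an unadjusted p under 0.05), DESeq2 0 and limma-voom 9. CD24 (−0.92 ± 0.25), TCF4 (−0.83 ± 0.24), P2RX5 (0.59 ± 0.18) and RASGRP3 (−0.70 ± 0.26) had the lowest p there, each with an adjusted p of 0.874 by edgeR. Over all genes 0.00% passed edgeR in that comparison, with 4.13% at an unadjusted p under 0.05, and DESeq2 and limma-voom called 4 and 1256.

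Markers of other blood cells also differed between the yield groups of Shweta Kapila. Summed CPM of 20 T cell markers ran from 5730 to 7102 in Shweta Kapila high and from 3261 to 5384 in low, and of 10 NK and cytotoxic markers, from a list of 17, from 1718 to 4199 and from 841 to 1542. The members' own sum was 645 to 721 CPM in high-yielding and 778 to 2222 CPM in low-yielding cows. Shweta Kapila low 3 had both the highest member sum and the lowest T cell sum of the 12 cows. For plasmacytoid dendritic cells 9 of 15 markers were tested, and the 10 matched ones summed to 524 to 758 CPM in high-yielding and 923 to 1185 CPM in low-yielding cows, with no marker at 0 in all libraries. All 9 were lower with high yield in Shweta Kapila, and 6 of 9 without low 3. Abundant genes such as ZEB2 (436 CPM in low 1) weigh most in that sum. PACSIN1 stood at 10.2, 7.63 and 8.40 CPM in high 1 to 3, against 3.47, 7.91 and 72.4 CPM in low 1 to 3. TCF4, SPIB and IRF8 stand in both the plasmacytoid dendritic cell list and the B cell lists, and the part of either cell type was not tested.

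Shweta Kapila low 3 had the highest CPM of all 12 cows for BLNK, CD79B, FCER2, PAX5 and CD22, and ranked second for the other 4 members. Low 3 was the top cow for 12.2% of all genes tested. Attention to this cow was part of the choice of the members, so nothing is read from these ranks. Against the mean of low 1 and low 2 its excess was uneven, at 1.20-fold for BANK1, 1.21-fold for BLNK, 1.32-fold for BCL11A, 1.62-fold for FCRL1 and 1.65-fold for FCER2. It was 2.04-fold for EBF1, 3.29-fold for CD22, 3.37-fold for PAX5 and 5.82-fold for CD79B. Among 20 other genes of B cells, plasma cells and plasmacytoid dendritic cells the excess was graded. The plasma cell gene DERL3 was at 14.2-fold and the plasmacytoid dendritic cell marker PACSIN1 at 12.7-fold, followed by SIGLEC10 at 6.06-fold, CD79A at 5.45-fold, the B cell factor SPIB at 5.23-fold and the BAFF receptor TNFRSF13C at 3.93-fold. In between lay CD37 at 2.85-fold, FCRLA at 2.03-fold, IRF4 at 1.92-fold, POU2AF1 at 1.76-fold and SYK at 1.43-fold. At the lower end TCF4 was at 1.25-fold, LYN at 1.07-fold, MEF2C at 0.764-fold and PIK3AP1 at 0.713-fold. These genes were chosen after their values had been seen. The grading also depends on the base, since DERL3 stood at only 2.36 and 6.85 CPM in low 1 and low 2. Over the mean of Shweta Kapila high, low 3 held 2.61-fold DERL3, close to 2.55-fold BANK1 and 2.69-fold BLNK. CD79B was at 4.07-fold and PACSIN1 at 8.28-fold on that base.

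Low 1 was high for some members and not for others, and low 2 was high for all but CD79B. Over the mean of Shweta Kapila high, low 1 held 1.99-fold BLNK, 1.84-fold BANK1 and 1.66-fold BCL11A, but 0.471-fold CD79B, 0.727-fold CD22 and 0.937-fold PAX5. In low 2 CD79B, at 0.929-fold, was the one member below the mean of Shweta Kapila high. The others in low 2 ran from 1.33-fold for CD22 over 1.65-fold for FCER2, 1.82-fold for PAX5 and 1.84-fold for EBF1 to 2.46-fold for BLNK and 2.66-fold for BCL11A. These folds compare single cows and carry no error.

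**Figure D3:**
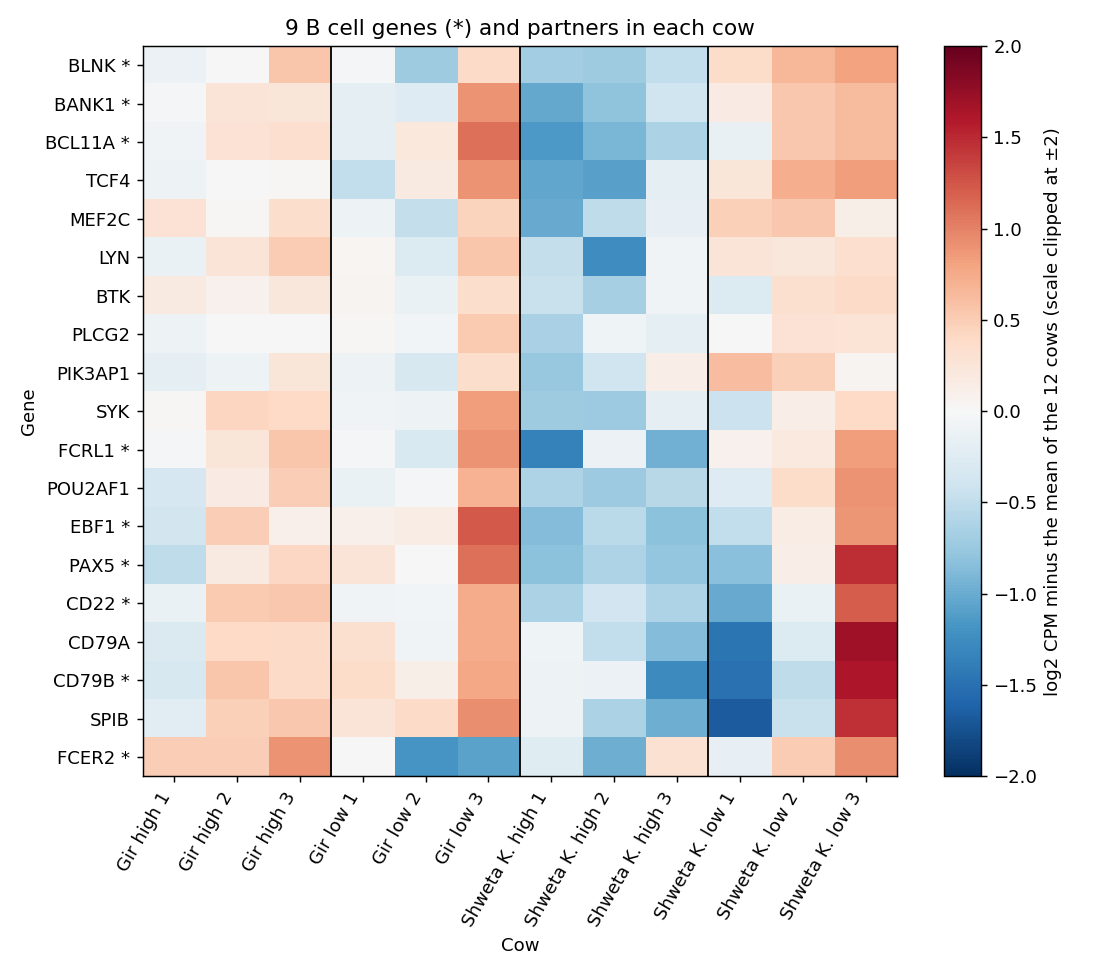
Colour shows log2 CPM minus the mean of the 12 cows (columns) for the 9 B cell genes, marked by an asterisk, and 10 partners (rows). In Shweta Kapila low 1 and low 2 the upper rows from BLNK to PIK3AP1 are mostly above the mean while CD79A, CD79B and SPIB are below it, and low 3 is above the mean in both sets, least so for MEF2C and PIK3AP1.

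Ratios of 2 genes within a cow do not depend on how libraries are scaled. The CD79A/CD79B ratio of CPM was steady, from 2.74 to 4.71 over the 12 cows. BANK1/BLNK was steady as well, from 3.55 to 6.29, and so was PAX5/EBF1, from 3.85 to 7.30. Within each of these pairs the highest ratio was 1.72 to 1.90 times the lowest. CD79B/BLNK, by contrast, spanned 6.41-fold, at 2.68, 2.67 and 1.03 in Shweta Kapila high 1 to 3, against 0.490, 0.782 and 3.13 in low 1 to 3. In Gir it ran from 1.54 to 2.60 in high-yielding cows and from 2.31 to 3.14 in low-yielding cows.

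FCER2/PAX5 spanned 9.498-fold, the widest of the 8 ratios computed. It stood at 1.33, 0.827 and 0.926 in Gir high 1 to 3, against 0.560, 0.295 and 0.148 in low 1 to 3, without overlap. In Shweta Kapila it was 0.992, 0.515 and 1.40 in high 1 to 3, against 1.05, 0.863 and 0.455 in low 1 to 3, with overlap. The ratios were chosen after the values had been seen.

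**Figure D4:**
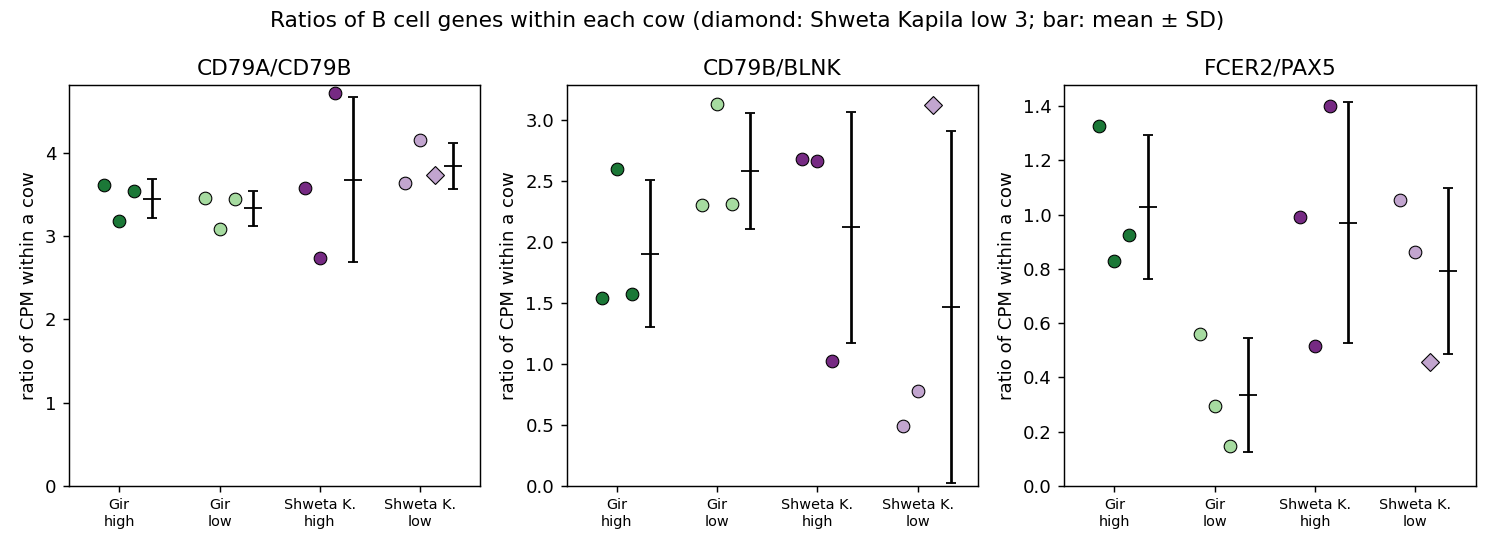
Panels show ratios of CPM within each cow (y axis, from 0) by group (x axis), with mean ± SD and Shweta Kapila low 3 as a diamond. CD79A/CD79B stays between 2.74 and 4.71, CD79B/BLNK is lowest, 0.490, in Shweta Kapila low 1, and FCER2/PAX5 is at 0.827 to 1.33 in Gir high against 0.148 to 0.560 in Gir low.

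The 3 lowest CD79B/BLNK ratios came from the 3 libraries of over 22 M counts. They were 0.490 in Shweta Kapila low 1 (25.9 M counts, 13.1% on the short identifiers), 0.782 in low 2 (22.7 M, 11.7%) and 1.03 in high 3 (27.2 M, 9.00%). Low 3, with 16.5 M counts and 5.57%, had a ratio of 3.13. Depth and library composition thus moved with this split between members, and their part in it was not tested. With that share as a covariate, BLNK was at −1.19 and CD79B at −1.61 for yield in Shweta Kapila.

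**Figure D5:**
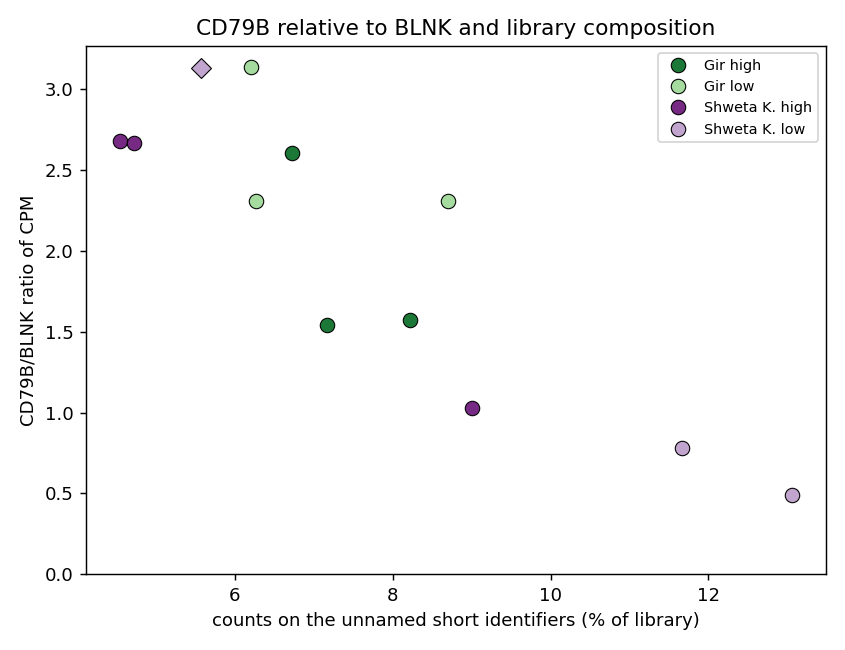
The CD79B/BLNK ratio of CPM (y axis, from 0) is plotted against the percentage of a library's counts on the 37 unnamed short identifiers (x axis), 1 point a cow, with Shweta Kapila low 3 as a diamond. The 3 cows with shares of 9.00%, 11.7% and 13.1% have the lowest ratios, 1.03, 0.782 and 0.490.

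The breed difference, Gir over Shweta Kapila averaged over both yield classes, was tested. The members were chosen with the values of the same Shweta Kapila cows known, so the member tests are not independent of that choice. Signs, medians and p of the members for breed are therefore a description. Of the 9 members 8 were higher in Gir, with a median log2 fold change of 0.39 beside −0.04 over all genes, and 0 passed edgeR's quasi-likelihood test, where 0.00% of all genes passed. The median was 0.66 without Shweta Kapila low 3 (9 of 9 higher), 0.24 without Shweta Kapila low 1 and 0.21 without Gir low 3. Without the 3 libraries of over 22 M counts, which leaves low 3 as the only low-yielding Shweta Kapila cow, it was 0.025 with 5 of 9 higher. BCL11A (0.59 ± 0.23, SE; adjusted p = 0.463) was the only member with an unadjusted p under 0.05 (1 of 9, higher in Gir), beside 9.57% of all genes on either side and 3.78% on the higher side, and DESeq2 and limma-voom called 0 of 9. EBF1 followed at 0.58 ± 0.28 (adjusted p = 0.535 by edgeR), and BLNK at 0.07 ± 0.20 (adjusted p = 0.925) and FCER2 at −0.14 ± 0.28 (adjusted p = 0.885) were nearest to 0.

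Without Shweta Kapila low 3 the breed differences of CD79B, PAX5 and CD22 were larger, while edgeR called 0 of the 9 (DESeq2 and limma-voom were run with all cows). That cow had the highest CPM of the 12 for these 3 genes, and for SIGLEC10 and SPIB below. Leaving it out thus raises Gir over Shweta Kapila for them in any case. It was also singled out with its values known, so the adjusted p without it are given as a description. CD79B went to 1.01 ± 0.27 (adjusted p = 0.0617), against 0.32 ± 0.44 (adjusted p = 0.818) with that cow, and CD22 to 0.82 ± 0.22 (adjusted p = 0.0632), against 0.41 ± 0.32 (adjusted p = 0.675). PAX5 went to 0.81 ± 0.25 (adjusted p = 0.0853), against 0.39 ± 0.34 (adjusted p = 0.715). Over all genes edgeR's count was 447 without that cow, against 0 with it. Of the 69 tested genes of the 3 B cell lists it was 3 without that cow, SIGLEC10 (1.33 ± 0.27, adjusted p = 0.0280) and SPIB (1.15 ± 0.26, adjusted p = 0.0391) higher in Gir and IKZF3 (−0.65 ± 0.14, adjusted p = 0.0368) lower. With all 12 cows edgeR called 0 of the 69 (4 higher and 2 lower at an unadjusted p under 0.05), DESeq2 1 and limma-voom 9.

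IKZF3, a lymphocyte factor shared with T and NK cells, had the lowest p for breed among the listed genes with all 12 cows, at 427 ± 33.8 and 588 ± 46.3 CPM in Gir high and Gir low, against 702 ± 119 and 802 ± 141 CPM in Shweta Kapila high and low (mean ± SD, n = 3 each; −0.58 ± 0.15, edgeR adjusted p = 0.283). Markers of other blood cells differed in sign for breed as well. Lower in Gir were 16 of 20 T cell markers (median −0.43, 11 of the 20 at an unadjusted p under 0.05 by edgeR) and 9 of 10 NK and cytotoxic markers (median −0.92, 7 of the 10), and higher were 12 of 12 neutrophil markers (median 0.57, 3 of the 12). Their part in the breed differences of the B cell genes was not tested. PRDM1 (−0.75 ± 0.26, adjusted p = 0.399 by edgeR) and XBP1 (−0.47 ± 0.17, adjusted p = 0.401), from the plasma cell list, were next, on the same side, and PIK3CD, a lymphocyte lipid kinase, was at 0.40 ± 0.15 (adjusted p = 0.427). Without the libraries over 22 M counts PRDM1 was at −0.10, XBP1 at −0.23, IKZF3 at −0.34 and PIK3CD at 0.41. PRDM1 stood at 124, 71.0 and 37.1 CPM in Shweta Kapila low 1 to 3, against 2.36, 6.85 and 65.5 CPM for the plasma cell gene DERL3. Which cells PRDM1 came from was not tested.

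The yield difference in Gir minus that in Shweta Kapila was above 0 for all 9 members, with a median of 0.97, and for 8 of 9 without Shweta Kapila low 3 (median 0.83). The largest values belonged to FCER2 (2.00 ± 0.56, SE) and BLNK (1.47 ± 0.40). Of the 69 genes of the B cell lists edgeR called 0 here (2 higher at an unadjusted p under 0.05, MEF2C and HHEX), DESeq2 0 and limma-voom 7. In this comparison 0.00% of all genes passed edgeR, with 587 (3.81%) at an unadjusted p under 0.05, and DESeq2 and limma-voom called 9 and 1308.

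By likeness over the 12 cows, measured as Pearson r of log2 CPM and given as a description, BLNK had BANK1 at rank 5 of 11895 named genes (r = 0.88). FCRL1 (0.79, rank 35), BCL11A (0.76, rank 80) and PAX5 (0.66, rank 213) came later. EBF1 (0.62, rank 316), FCER2 (0.57, rank 505) and CD22 (0.55, rank 559) were further away. Without Shweta Kapila low 3 the last 3 were at 0.53, 0.48 and 0.40. CD79B was far off (0.31, rank 2238, and 0.06 without Shweta Kapila low 3). Closest of all to BLNK was SWAP70 (0.93), a signalling protein of activated B cells, then SEC23B, a coat protein of secretory vesicles (0.89), LRRC8B, a subunit of volume-regulated channels (0.88), and BEND3 (0.88). INTS12 (0.86), RAP1GDS1 (0.85) and SSBP2 (0.85) completed the nearest 8. Values come from the same libraries and share their depth and composition.

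The mean of the 9 members had other neighbours. FCRLA, an intracellular Fc receptor-like protein of B cells (r = 0.97), KIAA0040 (0.96), POU2AF1 (0.96), TCTN1 (0.96), NAV3 (0.95), the DNA methyltransferase DNMT3B (0.94), the proton channel HVCN1 (0.94) and the factor IRF4 (0.93) were nearest among named genes outside the 9. Of these 8, 3 stand in the B cell lists, FCRLA, POU2AF1 and IRF4. Without Shweta Kapila low 3 their r stayed between 0.90 and 0.96.

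In Gir the listed genes of lowest p for yield were not those of Shweta Kapila. CD24, a surface glycoprotein of immature B cells and granulocytes, stood at 9.58, 8.69 and 8.16 CPM in Gir high 1 to 3, against 36.0, 12.7 and 17.8 CPM in low 1 to 3 (−1.33 ± 0.35, edgeR adjusted p = 1.0). IKZF3 (−0.46 ± 0.21) and ETS1, a lymphoid factor (−0.51 ± 0.24), had lower groups without overlap. Of the 69 genes edgeR called 0 (2 lower at an unadjusted p under 0.05), and DESeq2 and limma-voom 0 each. Over all genes in Gir 0.00% passed edgeR, with 291 (1.89%) at an unadjusted p under 0.05, and DESeq2 and limma-voom called 1 each.

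Plasma cells are the antibody-secreting end of the lineage, where PAX5 is switched off. Of 10 plasma cell genes, all tested, 7 were lower with high yield in Shweta Kapila (median −0.22, and 6 with a median of −0.05 without low 3) and edgeR called 0 (2 lower at an unadjusted p under 0.05; DESeq2 0, limma-voom 2). Over all 10 genes the median for breed was −0.39 beside −0.04 over all genes, with 8 lower in Gir (edgeR 0, 3 lower at an unadjusted p under 0.05; DESeq2 0, limma-voom 3). JCHAIN, which joins secreted IgM and IgA, averaged 165 ± 79.4 CPM in Shweta Kapila high and 261 ± 17.4 CPM in low (mean ± SD, n = 3 each). SDC1, a surface marker of plasma cells, was scarce, at 1.03 ± 1.27 and 0.112 ± 0.0210 CPM in Gir high and Gir low, and 0.326 ± 0.118 and 1.64 ± 1.58 CPM in Shweta Kapila high and low. Its yield difference in Gir minus that in Shweta Kapila had the lowest p of the listed genes (5.41 ± 1.42, edgeR adjusted p = 0.955), from as few as 2 counts in a library. Within Gir alone SDC1 was at 3.13 ± 1.07, with 2.497 CPM in high 1 and 0.272 and 0.310 CPM in high 2 and 3, against 0.0955 to 0.136 CPM in low-yielding cows.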

How the data were processed

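Blood RNA was sequenced after removal of ribosomal RNA with a kit that marks strand, per the labels' protocols. The authors deposited a table of expected counts, of which 57.0% were not whole (tolerance 1e-06). Trimmomatic and FastQC are named per the submitters' processing notes. Aligner, counter, strand setting, build and annotation were not given in the sources used here, so reads of overlapping, antisense or near-identical genes may be split in unknown ways. Of 26229 identifiers 22754 (86.8%) matched a RefSeq gene table (NIAB-ARS_B.indTharparkar_mat_pri_1.0), used for names only.

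After rounding, tests used edgeR 4.0.16 in R 4.3.3: filterByExpr by group (minimum count 10, minimum total 15; 15420 genes kept), TMM scaling, and a robust quasi-likelihood fit with 4 group means over all 12 libraries, which share an estimate of the spread. Tests were 2-sided with Benjamini-Hochberg adjustment over all genes (threshold 0.05), after the steps had been tested on simulated data. The simulated cows varied less than the real ones (common biological coefficient of variation 0.381), and none was outlying. That run therefore does not show how many real differences the tests could find here. The SE is the log2 fold change over the square root of its F statistic. In the smallest and the largest library 10 counts are 0.704 and 0.368 CPM. Alternatives were RLE scaling, DESeq2 1.42.0, limma-voom (limma 3.58.1), no filter, a replicate block, the share of short identifiers as a covariate, leaving out libraries over 22 M counts and leaving out each cow. Log2 CPM used a prior count of 2. Python 3.11.15 with NumPy 2.4.6, pandas 2.3.3 and matplotlib 3.10.9 made summaries and plots.

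The members and gene lists were chosen with earlier results of these data known. Beside the members, the text names receptor partners of BLNK (CD79A, SYK, LYN, BTK, PLCG2, PIK3AP1) and the listed genes of lowest p, 4 per comparison. Others (among them RASGRP3, HHEX, SPIB, TNFRSF13C, SIGLEC10, JCHAIN) were chosen after their values were seen. No 2 libraries of a group were copies (chi-square over degrees of freedom at least 32.5). One listed gene is not reported here by name.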

Additional observations from a re-analysis of the deposited data

How the results depend on the processing

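The members' median log2 fold change moved when single cows, or the libraries over 22 M counts, were left out. Without those libraries Shweta Kapila low 3 is the only low-yielding cow of its breed, so depth and that cow cannot be told apart. For Gir yield the median was −0.09 with all cows and 0.38 without Gir low 3. For Shweta Kapila yield it was −1.13, −0.59 without Shweta Kapila low 3 and −1.57 without libraries over 22 M counts. For breed it was 0.39, and 0.025 without those libraries. edgeR's 0 calls over all genes became, with DESeq2, 1 (Gir yield), 61 (Shweta Kapila yield), 4 (both breeds), 9 (difference between breeds) and 195 (breed), and with limma-voom 1, 3898, 1256, 1308 and 2558. Without libraries over 22 M counts, which leaves 1 low-yielding Shweta Kapila cow assumed to vary like the others, they became 3 (Shweta Kapila yield), 1 (both breeds) and 31 (breed). For breed they became 3 without a filter and 24 with the share covariate. Leaving out each cow gave 0 to 2 (Shweta Kapila yield), 0 to 1 (difference between breeds) and 0 to 447 (breed). In the B cell lists limma-voom called 21 (Shweta Kapila yield), 9 (both breeds), 7 (difference between breeds) and 9 (breed), DESeq2 called 1 for breed, and leaving out a cow gave 0 to 3 for breed. The breed difference changed sign for BLNK with limma-voom (−0.053) and, with a cow left out, ranged from −0.070 to 0.19; for FCER2 it ranged from −0.38 to 0.038. Without libraries over 22 M counts it changed sign for CD79B (−0.40), PAX5 (−0.069) and CD22 (−0.046). The causes were not tested. Replicate numbers were not taken to pair cows, since deviations correlated above 0.1 in 3 of 18 same-numbered pairs; the replicate block gave 1 call for breed and −1.25 for BLNK in Shweta Kapila.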
